A study of Mus musculus with 6 samples.

Results

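Expression of interleukin and interferon receptor genes was examined in splenocytes enriched for Sca-1, a protein on the surface of primitive blood cells, by magnetic bead separation. Of 37 listed receptor genes, 30 had an array entry annotated to that gene alone and were measured among 14860 genes in all. The list was drawn up by function and not by signal, though with earlier results of these data known. Il2rb, Il2rg, Crlf2, Il6ra, Il11ra1, Il1rl1 and Il20rb were not analysed here. Every mouse, in both groups, carried the NRASD12 and BCL-2 transgenes (NRASD12/BCL-2 double transgenic) in the FVB/N strain. The line models acute myeloid leukaemia by joining a mutant NRAS to the survival protein BCL-2. The 3 control mice were untreated per the series description. The 3 treated mice were given ABT-737, a compound that blocks BCL-2 and its relatives BCL-XL and BCL-W, at 75 mg/kg 3 times each week for 33 days. Age, the promoters of the transgenes, and whether controls received vehicle are not given in the sources used here.

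Interleukin and interferon receptors are surface proteins built from several chains, and a cell answers a cytokine only when it carries the full set. Chains of the haematopoietin and interferon type bind JAK kinases, which phosphorylate STAT factors, and SOCS proteins and CISH feed back on the same pathway. Chains of the interleukin-1 and interleukin-18 type signal instead through the adaptor MYD88, and interleukin-17 receptors through their own adaptor, ACT1. In the spleen the chains are shared out by cell type, with the interleukin-7 receptor on lymphocytes, the interleukin-5 receptor on eosinophils and some B cells, and the interleukin-12 and interleukin-18 receptors on T and NK cells.

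Each mouse gave 1 Affymetrix exon array, and array medians ran from 6.86 to 7.14 on the log2 scale. A receptor signal comes from all cells of the selected population, so fewer cells of a type and less RNA per cell cannot be told apart. The gene for Sca-1 was not analysed here. Among other markers of primitive cells, Kit stood at 8.25, 7.83 and 8.46 in the controls and 8.08, 8.46 and 8.12 in the treated mice, and Cd34 at 9.98, 9.47 and 10.25 against 9.11, 9.63 and 8.89. Of all 14 measured stem and progenitor markers 4 had higher means, or 3 after either scaling, with 4 lower (Cd34 among them) and 1 higher at an unadjusted p under 0.05 by limma. The T cell gene Cd3e stood at 11.83 to 12.23 in the controls and 11.80 to 12.56 in the treated mice. No background signal was available, so presence or absence of a transcript was not judged. Libraries stood apart in 2 ways. The Y-linked genes Eif2s3y and Kdm5d were at 4.23 and 4.77 in control mouse 3. In the others they were at 9.87 to 10.27 and at 8.05 to 9.06. No treated mouse was low in them, so the groups were not balanced in Y-linked signal, and its part in the differences was not tested. Leaving out treated mouse 1 raised the adjusted calls over all genes from 0 to 510. Receptor differences that moved by more than 1.5 times without either mouse are given without it, or by their range when single mice were omitted.

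The comparison asked which receptor genes differed after ABT-737. The receptors did not move as a block. Signals of both interleukin-18 receptor chains, Il18r1 and Il18rap, of the interleukin-17 receptor chain Il17ra and of the type I interferon receptor chain Ifnar2 had higher means in the treated mice, by 0.49 to 1.06 log2. Those of Il1r1, the signalling receptor for interleukin-1, and of both interleukin-12 receptor chains had lower means, by 0.36 to 1.23 log2. None of these differences passed the threshold of 0.05 after Benjamini-Hochberg adjustment over all genes by limma. Of the 30 receptor genes 18 differed by less than 0.3 log2, among them both chains for interferon gamma and the one for interleukin-7.

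By limma, 0 of 30 receptor genes had an adjusted p under 0.05, as did 0% of all 14860 genes. At an unadjusted p under 0.05 there were 6 receptor genes, or 20%, against 10.2% of all genes. Of these, 4 were higher in the treated mice (13.3%, against 5.75% of all genes) and 2 lower (6.67%, against 4.45%). The control and treated values did not overlap in 5 receptor genes, or 16.7%, against 13.3% of all genes. The treated mice were all above the controls in 2 of them (6.67%, against 6.14%) and all below in 3 (10%, against 7.19%). Higher means were found for 16 receptor genes, or 15 after quantile normalization and 13 after centring, and lower means for 14. Over all 14860 genes 6540 had higher and 8320 lower means, and such counts for the other lists stand beside these. The median difference of the receptor genes was 0.02 log2, beside -0.02 for all genes. It turned to -0.02 under quantile normalization and to -0.07 when arrays were centred. The number at an unadjusted p under 0.05 became 10 when treated mouse 1 was omitted and 2 when treated mouse 3 was, against 14.7% and 7.41% of all genes. Genes without overlap numbered 14 when treated mouse 1 was left out, 11 for control mouse 3, 10 for treated mouse 2 and 8 for control mouse 1, where 28.1%, 20.7%, 23.1% and 21.7% of all genes did not overlap.

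**Figure D1:**
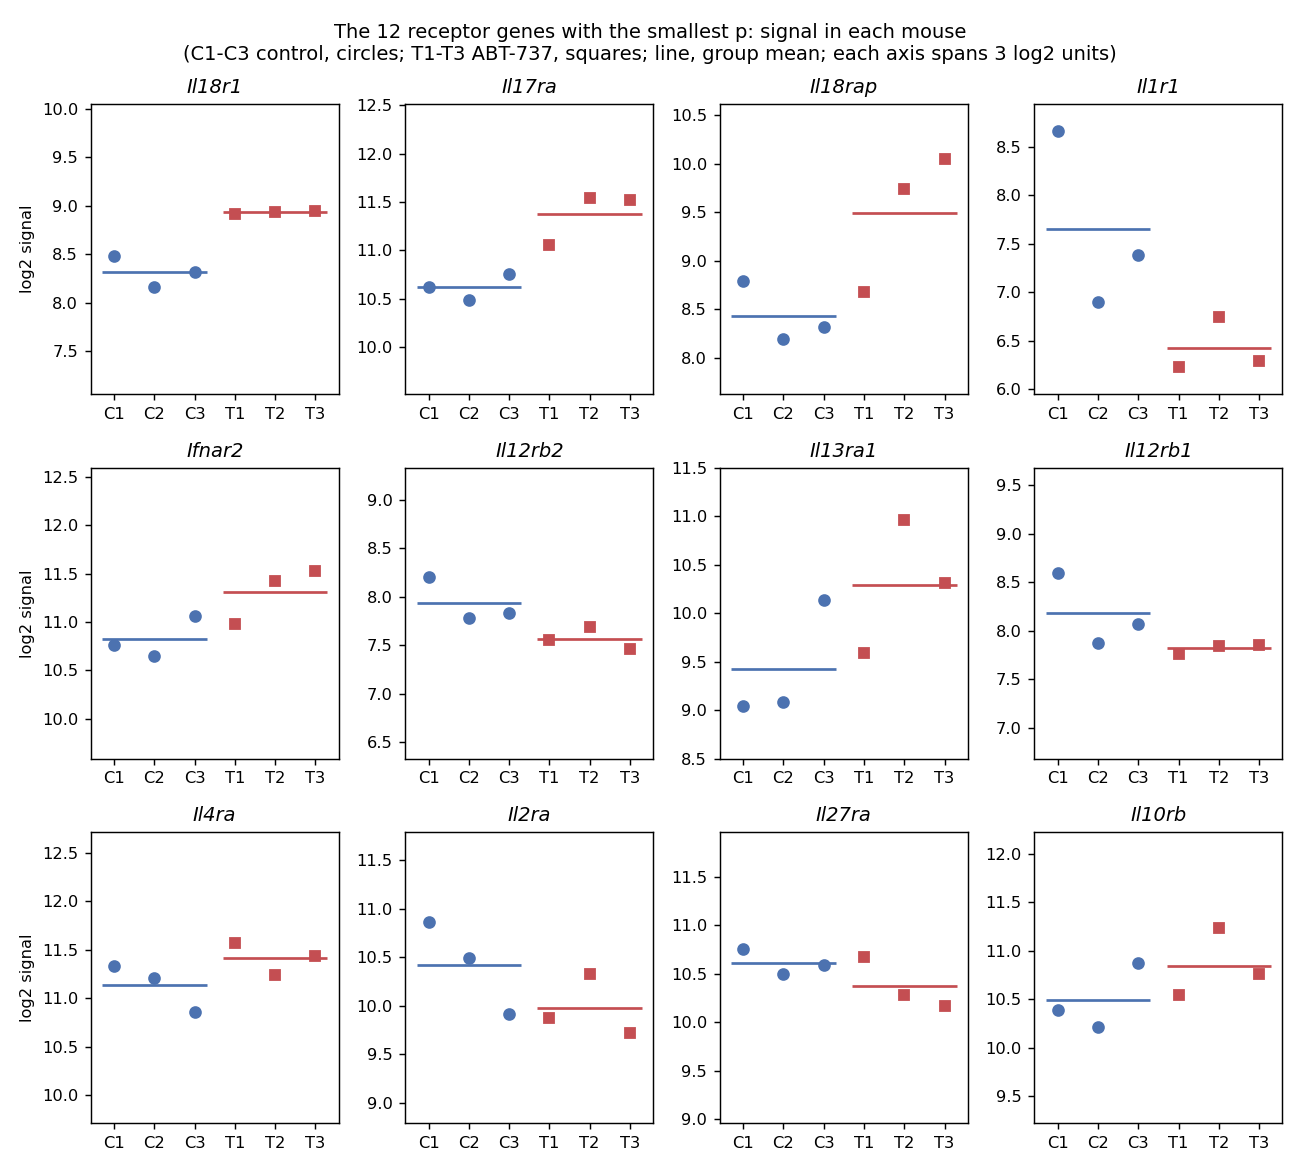
Log2 signal of the 12 receptor genes with the smallest limma p in each of 3 control mice (circles) and 3 ABT-737 mice (squares), with lines at the group means and every vertical axis spanning the same number of log2 units. Il18r1 stood at 8.92 to 8.95 in the treated mice, above all controls, while Il18rap of treated mouse 1, at 8.68, lay within the controls.

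The interleukin-18 receptor is made of the binding chain Il18r1 and the accessory chain Il18rap. Il18r1 stood at 8.48, 8.16 and 8.32 in the controls and at 8.92, 8.94 and 8.95 in the treated mice. Every treated mouse lay above every control, and the treated mice hardly differed from each other. The difference was 0.62 log2 (SE 0.12, 1.53-fold), with the smallest p of the receptor genes (unadjusted p = 0.00115, adjusted p = 0.245 by limma). Il18rap stood at 8.79, 8.19 and 8.32 in the controls and at 8.68, 9.74 and 10.05 in the treated mice. Treated mice 2 and 3 were high, while treated mouse 1 lay among the controls. Its difference was 1.06 log2 (SE 0.35, 2.08-fold; unadjusted p = 0.0189, adjusted p = 0.404 by limma). Without treated mouse 1 it was 1.46, with an adjusted p of 0.0125 by limma. The unadjusted p was 0.0535 to 0.0703 without control mouse 2, treated mouse 2 or treated mouse 3. In the fit without treated mouse 1 2 of 30 receptor genes passed the adjusted threshold, Il18rap and Il17ra, against 3.43% of all genes. The gene for the ligand, Il18, differed by 0.17 (SE 0.26).

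Il1r1, the signalling receptor for interleukin-1 alpha and beta, showed the largest difference of the 30 genes in size. Its signal was 8.66, 6.90 and 7.38 in the controls and 6.23, 6.74 and 6.29 in the treated mice. All treated mice lay below all controls, but the controls themselves spread widely, with control mouse 1 far above the others. The difference was -1.23 log2 (SE 0.42, 2.34-fold lower; unadjusted p = 0.0216, adjusted p = 0.405 by limma), and it was -0.72 without control mouse 1. Without treated mouse 3 the unadjusted p was 0.0699. Il1r2, the decoy receptor that binds interleukin-1 without signalling, stood at 9.44, 9.09 and 7.61 in the controls and at 10.05, 10.92 and 11.21 in the treated mice. Its values did not overlap either, but in the opposite direction, with a difference of 2.01 (SE 0.50; unadjusted p = 0.00475 by limma). Il1rn, which encodes the soluble antagonist of the same receptor, was higher by 1.20 (SE 0.26) and Il1rap, the accessory chain shared by several receptors of the family, by 0.82 (SE 0.26). The ligand gene Il1b was higher by 1.32 (SE 0.44), with treated mouse 3, at 10.70, level with control mouse 2. By limma the adjusted p of these 4 genes stayed above 0.05.

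Il1rl2 encodes the receptor for the interleukin-36 cytokines. It stood at 7.78, 7.21 and 7.42 in the controls and at 7.25, 8.42 and 8.0 in the treated mice. Treated mice 2 and 3 lay above the controls and treated mouse 1 within them. The difference was 0.42 (SE 0.30), with 0.74 when treated mouse 1 was omitted and 0.16 when treated mouse 2 was. Of the genes for its ligands, Il1f9, now called Il36g, was higher by 2.82 (SE 0.43) and Il1f6, now Il36a, by 0.80 (SE 0.19). In both these genes every treated mouse, the first included, exceeded every control. The related genes Il1f8 and Il1f5, on the same list of ligands, differed by 0.06 (SE 0.14) and 0.0033 (SE 0.17), with overlapping values.

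The receptor genes just described are neighbours on chromosome 1. In the gene order of assembly GRCm38.p6 the protein-coding genes run Il1r2, Il1r1, Il1rl2, Il1rl1, Il18r1, Il18rap. Along this run the differences were 2.01, -1.23 and 0.42, then 0.62 and 1.06 for the last pair, so Il1r1 had a lower mean beside 2 genes with higher means. Ifnar2, Il10rb, Ifnar1 and Ifngr2 form a second run on chromosome 16, with differences of 0.49, 0.35, 0.13 and 0.14.

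**Figure D2:**
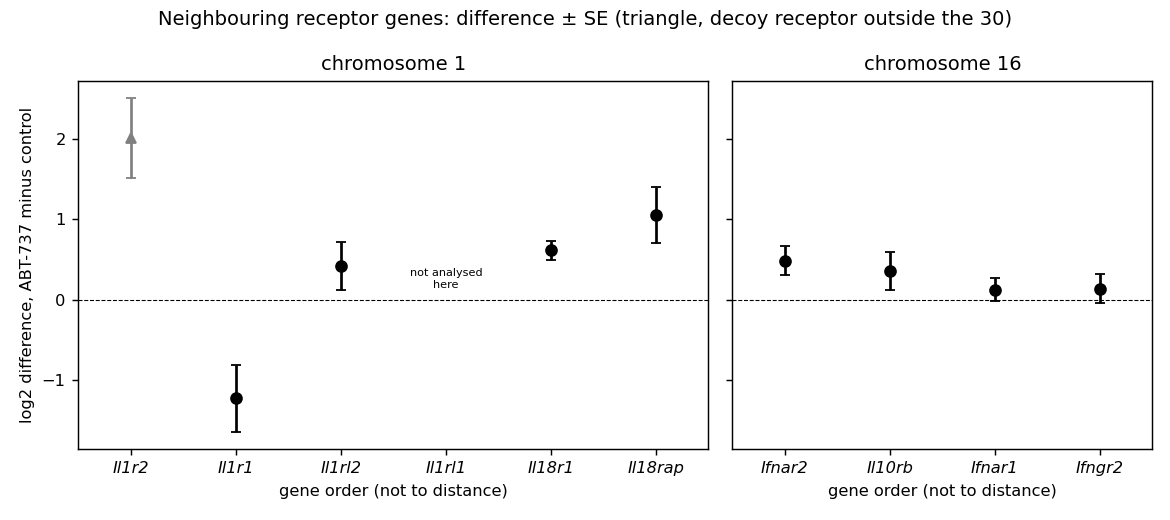
Difference in log2 signal, ABT-737 minus control, with its standard error for neighbouring receptor genes on chromosomes 1 and 16, in gene order. On chromosome 1 the points run from 2.01 for the decoy receptor Il1r2 (triangle) to -1.23 for Il1r1, and on chromosome 16 all 4 lie between 0.13 and 0.49.

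The promoters of the chromosome 1 receptors whose unadjusted p lay under 0.05 are shown because these neighbours differed in direction. Each runs from 250 bases before to 50 bases after a start annotated by RefSeq (GRCm38.p6), which is base 251, and is the first of the gene's starts in that table. Capitals mark matches, on either strand, to 3 motifs of blood cell factors. The motifs were TTCNNNGAA for STAT factors, GAGGAAGT for PU.1 and TTGCNNAA for C/EBP, and no printed promoter held more than 1 match. Il18r1 (chr1:40465302-40465601, plus strand) held none of these letters, Il18rap (chr1:40515112-40515411, plus strand) held the PU.1 motif, and Il1r1 (chr1:40224830-40225129, plus strand) held the C/EBP motif.
Il18r1: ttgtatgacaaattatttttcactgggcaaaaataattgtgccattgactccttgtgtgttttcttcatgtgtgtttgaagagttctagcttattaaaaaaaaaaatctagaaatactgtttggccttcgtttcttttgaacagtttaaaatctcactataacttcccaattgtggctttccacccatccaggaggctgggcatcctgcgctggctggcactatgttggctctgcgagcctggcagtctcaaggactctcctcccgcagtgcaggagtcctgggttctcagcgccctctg
Il18rap: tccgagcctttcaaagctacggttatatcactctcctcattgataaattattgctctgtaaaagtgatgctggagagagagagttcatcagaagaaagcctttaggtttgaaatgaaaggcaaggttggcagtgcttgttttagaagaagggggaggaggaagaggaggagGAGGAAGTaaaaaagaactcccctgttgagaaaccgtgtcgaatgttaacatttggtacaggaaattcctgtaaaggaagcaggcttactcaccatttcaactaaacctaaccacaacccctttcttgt
Il1r1: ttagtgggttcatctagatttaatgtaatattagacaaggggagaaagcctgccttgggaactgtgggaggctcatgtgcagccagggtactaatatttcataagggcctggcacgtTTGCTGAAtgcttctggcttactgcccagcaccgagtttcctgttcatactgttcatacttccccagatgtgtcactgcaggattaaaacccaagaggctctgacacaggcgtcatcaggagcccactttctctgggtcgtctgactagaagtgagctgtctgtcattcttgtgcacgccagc

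Of 27025 promoters of the same length, 3.28% held the PU.1 motif and 10.8% the C/EBP motif. Of 25 promoters of measured receptor genes, 1 held the PU.1 motif, 4 the C/EBP motif (Il1r1, Il1rl2, Il23r and Il7r) and 4 the STAT motif (Ifnar1, Ifnar2, Il12rb2 and Il7r, against 8.47% of all promoters). The receptors with the STAT motif did not share a direction, since Il12rb2 had a lower and Ifnar2 a higher mean.

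Il17ra is the chain shared by receptors of the interleukin-17 family. It stood at 10.62, 10.49 and 10.76 in the controls and at 11.06, 11.54 and 11.52 in the treated mice. Every treated mouse lay above every control, with treated mouse 1 nearest to them. The difference was 0.75 log2 (SE 0.16, 1.68-fold; unadjusted p = 0.00224, adjusted p = 0.281 by limma), and without treated mouse 1 it was 0.91, with an adjusted p of 0.0167 by limma. The chains that pair with it gave smaller estimates. Il17rc, the partner for interleukin-17A and F, differed by 0.0033 (SE 0.12) and Il17re, the partner for interleukin-17C, by -0.05 (SE 0.12). Their 95% intervals, -0.28 to 0.29 and -0.34 to 0.24, lay below the estimate for Il17ra, though the difference between chains was not tested. Il17rc and Il17re were also dimmer, at percentiles 41.4 and 39.5 of mean signal over all genes, against 95.7 for Il17ra. Whether that narrowed their differences was not tested. Il17rb, the partner for interleukin-25, was at 6.67, 7.00 and 7.19 in the controls and 6.71, 7.80 and 7.33 in the treated mice, a difference of 0.33 (SE 0.28) with overlapping values. Omitting treated mouse 1 gave 0.61 (unadjusted p = 0.0213 by limma), while omitting treated mouse 2 gave 0.07 and omitting control mouse 1 gave 0.19. The gene Il17a, a ligand, differed by -0.01 (SE 0.23).

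Of the adaptors and kinases below the interleukin-1 and interleukin-17 receptors, 11 of 13 listed genes were measured and 8 had higher means, or 6 after quantile normalization or centring. At an unadjusted p under 0.05 by limma there were 3 higher and 0 lower, where 5.75% and 4.45% of all genes were, and 0 passed after adjustment. Myd88, the adaptor itself, was at 10.96, 10.96 and 11.04 in the controls and 11.12, 11.65 and 11.85 in the treated mice, a difference of 0.55 (SE 0.19). Tirap, which brings MYD88 to Toll-like receptors, was higher by 0.97 (SE 0.28) and Tollip, which restrains the pathway, by 0.33 (SE 0.14). Traf3ip2, the gene for the interleukin-17 receptor adaptor ACT1, differed by 0.01 (SE 0.29), with overlapping values.

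The interleukin-12 receptor consists of Il12rb1, which it shares with the interleukin-23 receptor, and Il12rb2, through which it activates STAT4. Il12rb2 stood at 8.20, 7.78 and 7.83 in the controls and at 7.55, 7.69 and 7.46 in the treated mice. All treated mice lay below all controls. The difference was -0.37 log2 (SE 0.15, 1.29-fold lower; unadjusted p = 0.0388, adjusted p = 0.460 by limma), and it was -0.24 without control mouse 1. The unadjusted p lay between 0.0513 and 0.121 in 7 of 13 alternative settings, among them the omission of control mouse 1 or 3 or of treated mouse 1 or 3. Il12rb1 stood at 8.60, 7.87 and 8.07 in the controls and at 7.76, 7.84 and 7.85 in the treated mice. Its values did not overlap, though treated mouse 3 was only just below control mouse 2. The difference was -0.36 (SE 0.19, unadjusted p = 0.0961 by limma), and it was -0.15 without control mouse 1. Il23r, the chain that completes the interleukin-23 receptor, lay between 6.81 and 8.09 in the controls and between 6.90 and 7.34 in the treated mice, with every treated mouse inside the range of the controls. Stat4 differed by -0.22 (SE 0.19), the ligand gene Il12a by -0.02 (SE 0.35) and Il12b by -0.08 (SE 0.16). Ifng, a product of cells stimulated through the interleukin-12 and interleukin-18 receptors, stood at 8.61, 8.78 and 8.46 in the controls and at 9.30, 8.92 and 9.99 in the treated mice. Its treated values all lay above the controls, with a difference of 0.79 (SE 0.26; unadjusted p = 0.019 by limma). The promoter of Il12rb2 (chr6:67376139-67376438, minus strand, GRCm38.p6, RefSeq) is shown because it held the STAT motif, in capitals.
Il12rb2: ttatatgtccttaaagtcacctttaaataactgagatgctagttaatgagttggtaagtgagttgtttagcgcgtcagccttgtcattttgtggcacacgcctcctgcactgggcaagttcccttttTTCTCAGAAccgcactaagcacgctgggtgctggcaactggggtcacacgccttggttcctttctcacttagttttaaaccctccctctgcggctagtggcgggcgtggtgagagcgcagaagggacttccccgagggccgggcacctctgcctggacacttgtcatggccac

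The receptors that signal through Il6st, the gp130 chain, showed small differences. Il6st itself stood at 9.94, 9.59 and 9.67 in the controls and at 9.82, 9.56 and 9.28 in the treated mice, a difference of -0.18 (SE 0.17) with overlapping values. Omitting treated mouse 1 gave -0.31, omitting treated mouse 3 gave -0.04 and omitting control mouse 1 gave -0.08. Il27ra, which joins gp130 to bind interleukin-27, stood at 10.75, 10.50 and 10.59 in the controls and 10.67, 10.28 and 10.17 in the treated mice. Treated mice 2 and 3 lay below the controls, and the difference was -0.24 (SE 0.16), with -0.39 without treated mouse 1 and -0.14 without treated mouse 3. Ebi3, which encodes a subunit of interleukin-27, was higher by 0.94 (SE 0.26), with all treated mice above all controls. The gene Il27 itself differed by 0.13 (SE 0.19), with overlapping values. Lifr, the receptor for leukaemia inhibitory factor, spread from 7.62 to 8.42 in the controls and from 7.13 to 8.63 in the treated mice, so its spread exceeded its difference of -0.25 (SE 0.38). Osmr, the oncostatin M receptor, stayed between 4.46 and 4.77 on all arrays and was among the dimmest 30% of genes. The ligand gene Il6 differed by -0.64 (SE 0.27), with overlapping values. Of the 7 measured genes of this gp130 and interleukin-12 family, 6 had lower means, with a median of -0.24. Over all 14860 genes 8320 had lower means. After centring, which moved the median of all genes to -0.11, 0 of the family had a higher mean.

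The receptors for interleukin-2, 4, 7, 9, 15 and 21 share the common gamma chain, and 7 of the 10 listed genes of this family and its relatives were measured. None had an unadjusted p under 0.05 by limma, 2 had higher and 5 lower means, and their median difference was -0.04. Il2ra, the interleukin-2 receptor chain CD25 found on activated and regulatory T cells, stood at 10.86, 10.49 and 9.91 in the controls and at 9.87, 10.33 and 9.72 in the treated mice. The groups overlapped, and the difference of -0.45 (SE 0.27) was -0.23 without control mouse 1 and -0.70 without control mouse 3. Il4ra, the binding chain for interleukin-4, stood at 11.33, 11.21 and 10.86 in the controls and at 11.57, 11.24 and 11.44 in the treated mice. Its difference was 0.28 (SE 0.16), and without control mouse 3 it was 0.15. Il13ra1, which pairs with Il4ra on myeloid cells, stood at 9.04, 9.08 and 10.14 in the controls and at 9.59, 10.96 and 10.31 in the treated mice. Control mouse 3 lay above treated mouse 1, and the difference of 0.87 (SE 0.41; unadjusted p = 0.0711 by limma) was 0.53 without treated mouse 2.

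Il7r, on which lymphoid precursors and T cells depend, differed little. It stood at 11.94, 11.87 and 11.42 in the controls and at 11.86, 11.60 and 11.67 in the treated mice, a difference of -0.03 with a 95% interval of -0.42 to 0.36. Every treated mouse lay inside the range of the controls. Il15ra, which presents interleukin-15, differed by -0.04 (95% interval -0.38 to 0.31). Il21r and Il9r showed the split between the treated mice. Il21r, found on B, T and NK cells, stood at 10.95 in treated mouse 1, above the controls at 10.28 to 10.60, and at 9.94 and 9.73 in treated mice 2 and 3, below them. Il9r, found on mast cells and some lymphocytes, stood at 10.78 in treated mouse 1, inside the controls' range of 9.73 to 10.84, and at 9.65 and 9.63 in the others, below it. Over all treated mice the differences were -0.19 (SE 0.31) and -0.27 (SE 0.38). Without treated mouse 1 they were -0.57 (unadjusted p = 0.00844 by limma) and -0.65, and that of Il9r was 0 without control mouse 3. Il5ra, the interleukin-5 receptor, ran the other way in treated mouse 2, which at 7.00 was the lowest treated mouse. The other treated mice stood at 8.04 and 7.68, and the controls at 6.97, 7.24 and 7.66. Its difference was 0.28 (SE 0.29), with 0.05 without treated mouse 1, 0.57 without treated mouse 2 (unadjusted p = 0.0444 by limma), 0.12 without control mouse 1 and 0.47 without control mouse 3.

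**Figure D3:**
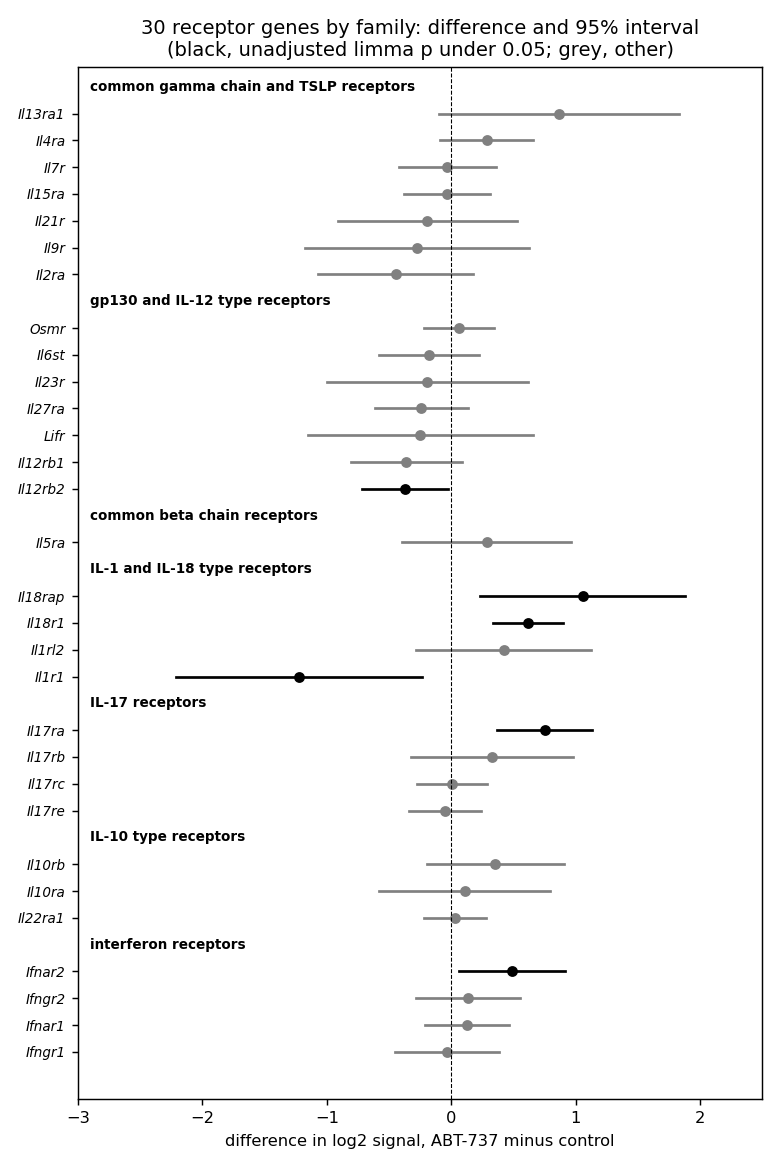
Difference in log2 signal, ABT-737 minus control, for the 30 measured receptor genes, with 95% intervals from limma, grouped by family. The 6 genes in black had an unadjusted p under 0.05, and the estimates run from -1.23 for Il1r1 to 1.06 for Il18rap.

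Type I interferons act through Ifnar1 and Ifnar2, and interferon gamma through Ifngr1 and Ifngr2. Ifnar2 stood at 10.76, 10.65 and 11.06 in the controls and at 10.98, 11.42 and 11.53 in the treated mice. Treated mouse 1 lay below control mouse 3, and the others lay above all controls. The difference was 0.49 log2 (SE 0.18, 1.40-fold; unadjusted p = 0.0313, adjusted p = 0.440 by limma). The unadjusted p lay between 0.0601 and 0.104 in 6 of 13 alternative settings, which were centring, array weights and the omission of control mouse 1 or 2 or of treated mouse 2 or 3. Ifnar1 stood at 9.69, 9.64 and 9.91 in the controls and at 9.77, 10.11 and 9.74 in the treated mice. Only treated mouse 2 lay outside the controls, and the difference was 0.13 (95% interval -0.21 to 0.47). Ifngr1 stood at 11.90, 11.90 and 11.83 in the controls and at 11.66, 12.24 and 11.63 in the treated mice. The treated mice lay on both sides of the controls, and the difference was -0.03 (95% interval -0.45 to 0.38). Ifngr2 stood at 11.47, 11.60 and 11.86 in the controls and at 11.48, 12.05 and 11.81 in the treated mice, a difference of 0.14 (95% interval -0.28 to 0.56). Ifnar1 and Ifngr2 moved by more than 1.5 times when single mice were left out, from 0.0083 to 0.21 and from 0.0017 to 0.29, and Ifngr1 turned positive without treated mouse 1 or treated mouse 3. Ifnlr1, the binding chain for interferon lambda, stood at 5.87, 5.77 and 6.06 in the controls and at 6.29, 7.92 and 7.73 in the treated mice. Its difference was 1.41 (SE 0.40; unadjusted p = 0.0091, adjusted p = 0.352 by limma), with treated mouse 1 nearest the controls. The promoter of Ifnar2 (chr16:91372533-91372832, plus strand, GRCm38.p6, RefSeq) is shown as the second with a STAT motif, again in capitals, among the 5 printed. That of Il17ra was not used here.
Ifnar2: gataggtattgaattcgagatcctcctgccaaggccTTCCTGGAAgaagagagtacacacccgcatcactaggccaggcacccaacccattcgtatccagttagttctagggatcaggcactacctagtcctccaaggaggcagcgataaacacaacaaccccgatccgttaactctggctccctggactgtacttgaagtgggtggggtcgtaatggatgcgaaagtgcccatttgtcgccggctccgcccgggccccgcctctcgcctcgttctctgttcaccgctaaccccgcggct

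Il10rb, which lies between the interferon receptor genes and serves the receptors for interleukin-10, interleukin-22 and interferon lambda, stood at 10.39, 10.21 and 10.88 in the controls and at 10.54, 11.24 and 10.76 in the treated mice. Only treated mouse 2 lay above the controls, and the difference of 0.35 (SE 0.24) was 0.16 without it, 0.21 without control mouse 2 and 0.55 without control mouse 3. Il10ra, the binding chain for interleukin-10, ranged from 9.96 to 10.35 in the controls and stood at 10.16, 10.86 and 9.65 in the treated mice, so its difference of 0.11 (SE 0.29) was smaller than the spread between treated mice. Il22ra1 stayed between 4.76 and 4.96 on all arrays and was, like Osmr, among the dimmest 30% of genes.

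Downstream genes of the same receptors were examined from fixed lists. Of 11 listed JAK and STAT genes 9 were measured, 5 had higher means, and none had an unadjusted p under 0.05 by limma. The smallest p values in that list belonged to Stat3 at 0.17 (SE 0.11) and Stat5b at 0.16 (SE 0.13), which carry signals of gp130 and of common gamma chain receptors. Of 17 measured inhibitors of the pathway, 6 had higher means, or 5 after either scaling, and 4 had an unadjusted p under 0.05 by limma, all higher. They were Pias3, an inhibitor of STAT3, at 0.56 (SE 0.17), Socs3, which restrains gp130, at 0.46 (SE 0.16), Socs2 at 0.45 (SE 0.19) and Cish, induced through STAT5, at 0.44 (SE 0.15). Of 14 measured STAT target genes, 4 were higher at that threshold, Cish, Socs3, Socs2 and Irf1 (0.40, SE 0.17), and 1 was lower, Myc at -0.95 (SE 0.26). Of 16 measured interferon-stimulated genes, 10 had higher means, or 9 after either scaling, and 2 were higher at that threshold, the chemokine Cxcl10 at 0.76 (SE 0.14) and Ifit1 at 0.62 (SE 0.21). Of 40 measured ligand genes, 19 had higher means, or 18 after quantile normalization and 14 after centring, 5 were higher at that threshold and 1, Il6, was lower. Of 11 measured genes for other receptor chains and decoys, 7 had higher means, or 6 after centring. At that threshold 4 of these were higher, Il1rn, Il1r2, Ifnlr1 and Il1rap, and 0 lower. No gene of these lists passed the adjusted threshold, and 5.75% and 4.45% of all genes were higher and lower at the unadjusted one.

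Markers of other cell types differed between the same mice, where 6540 of all 14860 genes had higher means. Of 18 measured granulocyte markers 14 had higher means, and 12 were higher at an unadjusted p under 0.05 by limma, against 5.75% of all genes. The other 4, Ctsg, Prtn3, Mpo and Elane, had lower means, by -0.73, -0.55, -0.51 and -0.32, and did not pass that threshold. The list was therefore not uniform. The mean signal of all 18 ranged from 10.36 to 11.16 in the controls. It was 11.35 for treated mouse 1, 12.25 for treated mouse 2 and 12.46 for treated mouse 3. In Il17ra, Il18rap and Ifnar2 too treated mouse 1 was nearest the controls, while Il18r1 was level in all treated mice. In some other lists, unlike the granulocyte list, treated mice 2 and 3 were above the controls and treated mouse 1 was not. All 11 measured erythroid markers had higher means, with 1 higher at that threshold, and their mean signal was 7.07 to 7.40 in the controls but 6.62, 8.34 and 9.10 in the treated mice. Of 10 measured megakaryocyte and platelet markers 8 had higher means, or 7 after centring, with 2 higher at that threshold, and a mean signal of 7.31 to 7.69 in the controls against 7.66, 8.04 and 8.01. Plasma cell markers followed another order. Of 7 measured 6 had higher means, or 5 after either scaling, with 4 higher at that threshold, and their mean signal was 9.66 to 10.01 in the controls and 10.27, 10.21 and 10.89 in the treated mice. The part of any of these cells in the receptor differences was not tested. Of 9 measured NK cell markers 2 had higher means. At that threshold 3 were lower (Prf1, Gzmb and Tbx21) and 1 higher, where 4.45% and 5.75% of all genes were. Their list mean was 7.65 to 7.89 in the controls and 7.30, 7.90 and 7.27 in the treated mice. Of 15 measured T cell markers 4 had higher means, or 3 after quantile normalization and 2 after centring, and 1 was lower at that threshold, with 10.10 to 10.44 against 9.91 to 10.28. The ranges of both lists overlapped between the groups. Treated mice 1 and 3 still lay below all controls in the NK cell list, and treated mice 2 and 3 in the T cell list. Il12rb2 too was lower in treated mice 1 and 3 than in treated mouse 2. The values of Il18r1 and of Il12rb2 did not overlap, and the part of either cell type in those differences was not tested.

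B cell markers, of which 13 of 14 had lower means, with 5 lower and 1 higher at that threshold, stood at 11.16 to 11.55 in the controls. Treated mouse 1 lay among them at 11.33, and the other treated mice were at 10.38 and 10.57. Il21r and Il9r were low in the same 2 mice. The mast cell and basophil list did not follow Il9r. Of its 9 measured markers 3 had higher means, or 2 after quantile normalization and 1 after centring, with 1 higher and 1 lower at that threshold. Its mean signal was 6.53 to 6.94 in the controls and 6.50, 6.97 and 6.93 in the treated mice, lowest in treated mouse 1. Of 17 measured monocyte and macrophage markers 14 had higher means, or 13 after either scaling, and 4 were higher at that threshold. Their list mean was highest among the controls in control mouse 3, at 9.60, and highest of all in treated mouse 2, at 10.07, as Il13ra1 was. The eosinophil markers, all 6 with higher means and 2 higher at that threshold, were highest in treated mouse 2, at 10.36, where Il5ra was the lowest of the treated mice. Of 12 measured endothelial and stromal markers 6 had higher means, or 3 after quantile normalization and 2 after centring, with 6.42 to 6.55 in the controls and 6.45 to 6.57 in the treated mice, beside the lower mean of Il1r1. Of 8 measured dendritic cell markers 2 had higher means, with 2 lower at that threshold, against 4.45% of all genes. Their mean signal was 8.07 to 8.39 in the controls and 7.96, 8.285 and 7.61 in the treated mice. Of 6 measured innate lymphoid cell markers 3 had higher means and 0 passed that threshold. Their mean signal was 8.77 to 8.96 in the controls and 8.815, 9.39 and 8.825 in the treated mice. The part of these cell types too was not tested. Counting all 30 receptors, treated mouse 1 lay outside the range of the controls for 12 genes (40%), treated mouse 2 for 22 (73.3%) and treated mouse 3 for 23 (76.7%). Over all genes these shares were 54.6%, 59.1% and 58.2%.

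**Figure D4:**
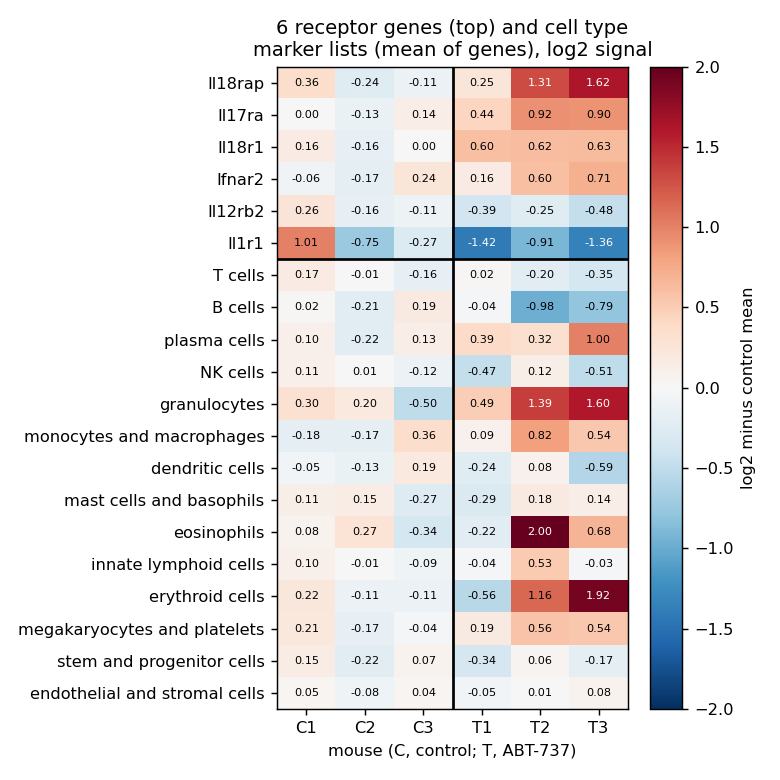
Log2 signal of the 6 receptor genes with an unadjusted p under 0.05 (top) and mean signal of cell type marker lists (below) in each mouse, relative to the mean of the controls. Il18rap and the granulocyte list are both highest in treated mice 2 and 3, at 1.31 and 1.62 and at 1.39 and 1.60. So are the erythroid, eosinophil, monocyte and macrophage, and megakaryocyte and platelet lists. In treated mouse 1 the granulocyte list, at 0.49, lies above all controls, while Il18rap, at 0.25, does not. Il18r1 is at 0.60 to 0.63 in all treated mice.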

How the data were processed

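Biotin-labelled RNA of 6 mice was measured on exon arrays made by Affymetrix, per the labels. The authors deposited log2 signals between 2.6 and 14.3, a scale judged from the values themselves. Genome build mm9 is named in the submitters' processing notes. Normalization, summarisation and filters are not given in the sources used here. The number of arrays limits the precision, and no scanner file or background signal was used.

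Of 23332 entries, 14996 had 1 gene symbol in the platform annotation, 1019 several and 7317 none. Only the first were named, and the entry with the highest mean was kept per gene, leaving 14860 genes. Each measured receptor gene had a single entry. By Entrez number 14941 symbols were matched to assembly GRCm38.p6, and 0 changed. Groups came from the treatment labels, with mice numbered in accession order. The titles give each array its own mouse number, but no source says more on how the mice were housed or processed.

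Differences, treated minus control, were fitted over all genes with limma 3.58.1 (lmFit and eBayes, R 4.3.3) and adjusted by Benjamini-Hochberg, with a threshold of 0.05. Values in every mouse are given for receptor genes with an unadjusted p under 0.05 or, if more, the 12 with the smallest p, and for interferon and shared chains. Of other pathway lists, genes with an unadjusted p under 0.05 are named, at most 6, or else the 2 with the smallest p. Marker lists are given by counts and mean signals. Others named were chosen after their values were seen. The members and lists were chosen with earlier results of these data known. Alternatives were quantile normalization, median centring, leaving out the dimmest 30% of genes, trended or robust variance, array weights, averaging the entries of a gene, and the omission of each mouse. On simulated data the fit was tested for this comparison with 14860 genes. It called 76% of 50 genes changed by a log2 of 1 and 100% of 50 changed by 2, with 11 false calls. The simulated noise was independent, with the fitted variances, and genes changed by 3 and 4 were planted too. In the real fit the granulocyte marker Cxcr2, at 2.93 log2, had an adjusted p of 0.155 by limma. The simulated shares therefore do not give the detection rate in these mice. Figures used matplotlib 3.10.9 in Python 3.11.15.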

Additional observations from a re-analysis of the deposited data

How the results depend on the processing

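Over 13 alternatives, 18 of 30 receptor genes kept their direction, among them the 6 with an unadjusted p under 0.05, 11 turned and Il9r was at 0 without control mouse 3. Of the 6, Il18r1 and Il17ra kept an unadjusted p under 0.05 in all 13, Il1r1 in 12, Il18rap in 10, Ifnar2 in 7 and Il12rb2 in 6. Leaving out the dimmest 30% removed Osmr and Il22ra1, so these had 12. Centring moved the receptor median to -0.07, beside a shift of the median of all genes from -0.02 to -0.11. Adjusted calls over all genes numbered 14 without the dimmest 30% and 2 with array weights, with 0 receptor genes among them. Without 1 mouse each they ran from 0 to 510, the latter without treated mouse 1, and without treated mouse 3 there was 1. Receptor genes with an adjusted p under 0.05 ran from 0 to 2, those with an unadjusted p under 0.05 from 2 to 10, and those without overlap from 5 to 14. The cause was not tested.

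Reversed signs all had an adjusted p above 0.8. They were -0.0653 for Il17rc under quantile normalization, -0.0233 for Osmr, -0.0833 for Il17rc and -0.0567 for Il22ra1 under centring, and 0.1005 for Il7r, -0.0357 for Il17rc and 0.0029 for Ifngr1 with array weights. Leaving out single mice gave -0.195 to 0.065 for Il7r, -0.14 to 0.0583 for Il15ra, -0.4133 to 0.2267 for Il23r, -0.08 to 0.065 for Il17rc, -0.1233 to 0.0217 for Il17re, -0.67 to 0.08 for Lifr, -0.2317 to 0.0733 for Ifngr1, -0.2117 to 0.3933 for Il10ra, -0.565 to 0.045 for Il21r, -0.005 to 0.1183 for Osmr and -0.03 to 0.07 for Il22ra1. No paired analysis was possible because the mice were numbered in accession order and the labels do not pair them.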
